A study of Mus musculus with 82 samples.

Results

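The genes that make, sense and move cholesterol were followed in mouse ear skin across 14 groups of an imiquimod experiment. They are 28 named genes, chosen by symbol for their place in the pathway, with earlier results of these data known. All 28 were found among the 56941 rows of each deposited table of gene counts, and all 28 passed the filter on low counts, which left 18780 genes of the time course and 18434 of the other, start-day experiment. Of these, 19 encode steps of synthesis (9 up to squalene with its prenyl branch and 10 from squalene to cholesterol), 4 encode the sterol sensing system and 5 encode or control transport.

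Cholesterol is built from acetyl-CoA by way of mevalonate, isoprenoid diphosphates, squalene and lanosterol. When membranes of the endoplasmic reticulum are short of sterol, the carrier SCAP takes the transcription factor SREBP2, the product of Srebf2, to the Golgi, where it is cut and released to switch on the synthesis genes, and the INSIG proteins hold the pair back when sterol is plentiful. Surplus sterol, as oxysterols, activates the liver X receptors (LXR), which raise the exporters ABCA1 and ABCG1. In skin, keratinocytes make cholesterol as a component of the barrier lipids, and sebaceous glands make lipids for the skin surface.

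Female C57BL/6J Rj mice gave punches of their right ears, and messenger RNA libraries were sequenced from each. Inflammation was induced with a cream holding 5% imiquimod, an agonist of Toll-like receptor 7, spread on the ears each day from day 0 to day 7 for 8 applications in all. The drug was IDOR-1117-2520, an oral small-molecule inhibitor of the chemokine receptor CCR6 given in the drinking water. In the time course, the groups were sham, imiquimod, and imiquimod with drug begun at least a day before the first cream, each labelled with day 2, 5 or 8. Ears taken on day 2 or 5 would have had fewer than 8 applications. Day and number of applications then cannot be told apart. Sham ears are given as vehicle in another label. The start-day experiment held sham, imiquimod, and imiquimod with drug begun on day 0, 3 or 5, and its labels give a time of treatment of day 8 for sham, imiquimod and the day 0 start, day 5 for the day 3 start and day 3 for the day 5 start. The labels do not say whether this is the length of drug treatment or the day of sampling. For the day 5 start it cannot be the day of sampling, since day 3 comes before the drug began. If it is the day of sampling for the day 3 start, that group was taken on another day than its imiquimod group. Start day and sampling day then cannot be told apart. Every group held 6 libraries, except sham at day 5 with 4. The labels do not say that each library came from its own mouse. The spread that the p-values rest on is therefore that between libraries, and part of it may be technical.

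Depth ran from 13.1 to 35.4 M counts in the 52 libraries of the time course and from 24.1 to 35.5 M counts in the 30 libraries of the start-day experiment. Levels are given as CPM, a count relative to the scaled total of its library, and they are compared between groups for 1 gene at a time, never between genes, since the tables carry no gene lengths. A change is a log2 fold change ± its standard error from edgeR's quasi-likelihood fit over all genes, and it counts as called at a Benjamini-Hochberg adjusted p under 0.05. In a tissue punch, fewer cells of a type and less RNA per cell cannot be told apart. Imiquimod libraries 9 and 11 of day 2 had the highest summed neutrophil markers (653 and 1190 CPM). Library 8 followed at 442 CPM, and libraries 7, 10 and 12 ran from 101 to 156 CPM, so no clear gap parts libraries 9 and 11 from library 8. Results of day 2 were also fitted without libraries 9 and 11.

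Promoters were read from a RefSeq table on the GRCm38.p6 build, which holds the 250 bases before and the 50 bases after a gene start. The deposited counts were made on GRCm39, so the coordinates place these windows on GRCm38.p6 only. The table held 22 of the 28 members, in 29 windows. It had no entry for Fdps, Fdft1, Sqle, Stard4, Npc1 or Abcg1. Both strands were searched for the sterol regulatory element TCACNCCAC bound by SREBP2, for the shorter form TCACNCCA that it contains, for the CCAAT box bound by NF-Y, and for an LXR element of the DR4 type, which is GGTNA, then NNNNN, then GGTNA. TCACNCCAC was found in Hmgcs1 alone among the 22 members and in 1.44% of all 27025 genes in the table (1.24% of all 32851 windows). The shorter form was found in Hmgcs1, Msmo1 and Srebf2 and in 4.97% of all genes in the table (4.36% of windows). A CCAAT box was found in 18 of the 22 members, 15 of them among the 16 synthesis genes in the table, and in 41.1% of all genes in it. The DR4 element was found in Abca1 alone among the members and in 0.818% of all genes in the table (0.718% of windows). A match is a string of letters and not a shown binding site, and a window without one says nothing of the factor.

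The Hmgcs1 promoter is shown because it holds the strict sterol element, and the Abca1 promoter because it holds the LXR element. The 40-base stretches of Srebf2 and Msmo1 were chosen after the matches were seen. All are printed 5′ to 3′ on the strand of the gene. Capitals mark the sterol element and the CCAAT boxes (ATTGG on this strand) in Hmgcs1, the DR4 element, read on the other strand, in Abca1, and the shorter sterol element in Srebf2 and Msmo1. The windows are chr13:119690101-119690350 on the plus strand for Hmgcs1, chr4:53159896-53160145 on the minus strand for Abca1, chr15:82147091-82147130 on the plus strand for Srebf2 and chr8:64733732-64733771 on the minus strand for Msmo1. In the Hmgcs1 window the sterol element began 137 bases before the gene start.
Hmgcs1: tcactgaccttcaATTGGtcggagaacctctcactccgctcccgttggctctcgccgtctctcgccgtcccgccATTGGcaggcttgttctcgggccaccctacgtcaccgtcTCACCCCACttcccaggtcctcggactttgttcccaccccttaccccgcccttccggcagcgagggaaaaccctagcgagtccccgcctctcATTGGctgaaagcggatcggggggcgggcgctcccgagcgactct
Abca1: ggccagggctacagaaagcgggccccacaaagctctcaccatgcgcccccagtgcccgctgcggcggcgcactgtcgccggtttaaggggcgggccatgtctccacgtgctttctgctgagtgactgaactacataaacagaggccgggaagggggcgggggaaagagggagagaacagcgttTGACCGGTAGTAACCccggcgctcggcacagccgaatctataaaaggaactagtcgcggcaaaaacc
Srebf2: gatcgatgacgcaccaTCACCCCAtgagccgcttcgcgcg
Msmo1: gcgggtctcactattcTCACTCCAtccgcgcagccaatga

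Imiquimod was followed by higher levels of most synthesis genes at every day, with a minority that fell. Of the 19 synthesis genes, 13 rose and 2 fell at day 2, 11 rose and 4 fell at day 5, 11 rose and 4 fell at day 8, and 16 rose and 2 fell in the start-day experiment. Over all 28 members, 15 rose and 7 fell at day 2, where 29.2% of all tested genes rose and 28.5% fell. At day 5, 14 rose and 7 fell beside 34.6% and 35.9% of all genes. At day 8, 15 rose and 7 fell beside 34.5% and 33.6%. In the start-day experiment 20 rose and 5 fell, beside 38.1% and 39.9%. The median log2 fold change of the synthesis genes was 0.304, 0.258, 0.23 and 0.713 in these 4 comparisons, against -0.031, -0.037, -0.014 and -0.024 over all genes. Genes called in either direction made up 57.7%, 70.4%, 68.1% and 78.1% of all tested genes in these comparisons, against 22, 21, 22 and 25 of the 28 members.

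**Figure D1:**
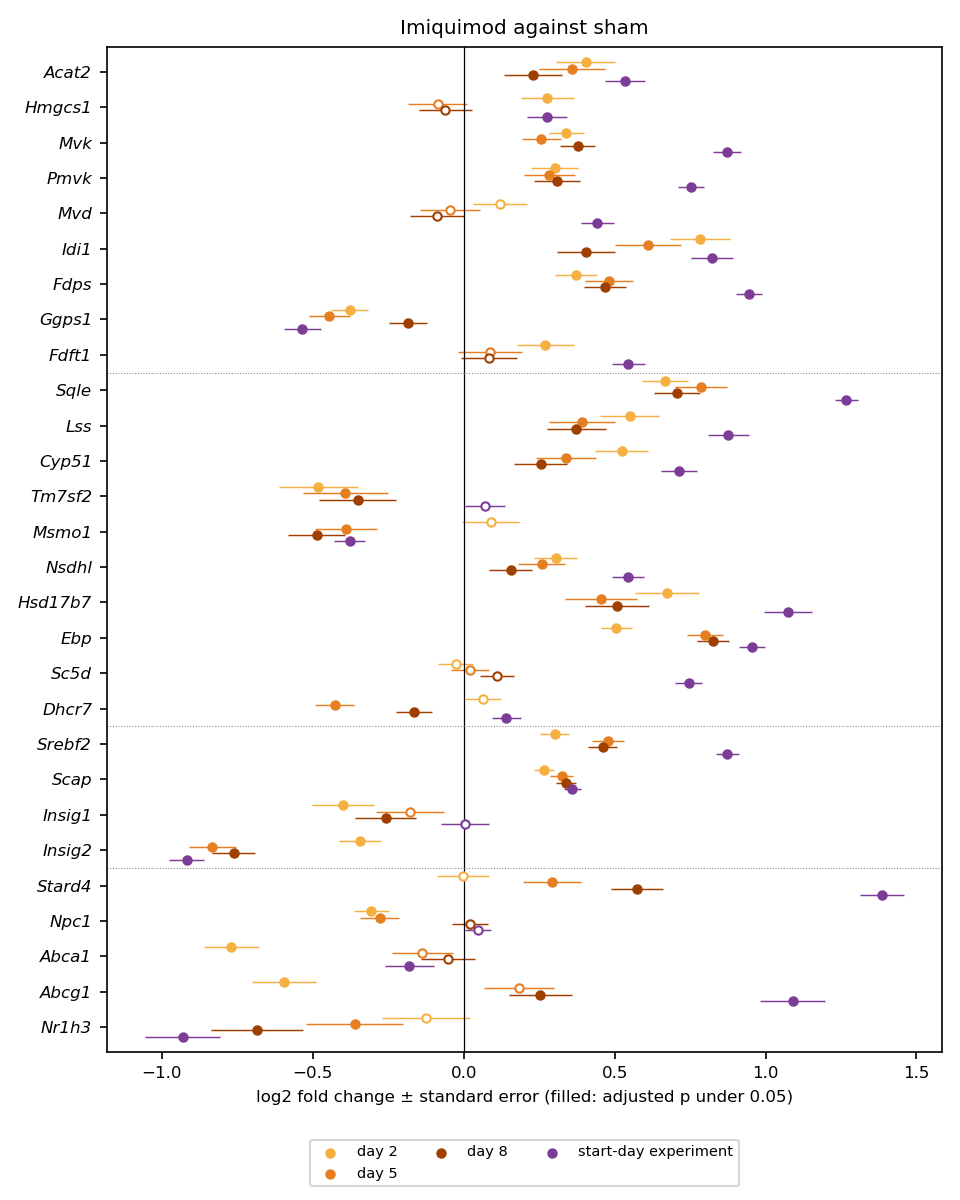
Log2 fold change (x axis) ± standard error of each of the 28 members, imiquimod against sham, at days 2, 5 and 8 and in the start-day experiment. Filled points have an adjusted p under 0.05, and dotted lines part the steps to squalene, the steps from squalene, sensing and transport. Most synthesis genes lie to the right of 0, and Stard4 and Abcg1 spread widely. Ggps1, Insig2, Abca1 and Nr1h3 lie to the left throughout, the last 2 not filled in every comparison.

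Sqle encodes squalene epoxidase, which makes the first oxygenated intermediate after squalene and limits the rate of the steps that follow. Its level ran from 114 to 153 CPM (median 132) in sham and from 188 to 259 CPM (median 212) in imiquimod ears at day 2. The 4 sham libraries of day 5 had 138, 132, 164 and 155 CPM, against 238 to 266 CPM (median 258) with imiquimod. At day 8 it ran from 145 to 190 CPM (median 172) in sham and from 240 to 296 CPM (median 280) with imiquimod. The imiquimod libraries were all above the sham libraries of their day. Levels of the start-day experiment ran from 125 to 148 CPM (median 140) in sham and from 321 to 345 CPM (median 332) with imiquimod, again without overlap. The log2 fold changes were 0.67 ± 0.077, 0.79 ± 0.087, 0.71 ± 0.076 and 1.27 ± 0.039, and the highest of the 4 adjusted p-values was 2e-10.

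Idi1 encodes the isomerase that turns isopentenyl diphosphate into its reactive partner. It ran from 54.1 to 83.9 CPM (median 68.5) in sham and from 103 to 143 CPM (median 117) in imiquimod ears at day 2, with no overlap. At day 5 the sham libraries had 81.9, 74.2, 81 and 81.8 CPM and the imiquimod libraries ran from 110 to 131 CPM (median 122). At day 8 the groups overlapped, with sham from 92.3 to 135 CPM (median 95.8) and imiquimod from 125 to 153 CPM (median 138). The highest sham value at day 8 came from library 38, and all other sham libraries of that day were below every imiquimod library. In the start-day experiment Idi1 ran from 80.1 to 110 CPM (median 92.5) in sham and from 147 to 178 CPM (median 166) with imiquimod, which did not overlap. Its log2 fold changes were 0.78 ± 0.098, 0.61 ± 0.11, 0.41 ± 0.097 and 0.82 ± 0.070 in the order day 2, 5, 8 and start-day experiment, all called.

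Hmgcs1 encodes the synthase that makes HMG-CoA, and it holds the strict sterol element printed above. It ran from 451 to 582 CPM (median 470) in sham and from 488 to 723 CPM (median 592) with imiquimod at day 2, and the ranges overlapped. At day 5 sham libraries had 534, 523, 538 and 581 CPM, and imiquimod libraries ran from 477 to 547 CPM (median 516). Day 8 levels ran from 557 to 777 CPM (median 609) in sham and from 536 to 651 CPM (median 606) with imiquimod. Hmgcs1 thus rose at day 2 (0.28 ± 0.089, adjusted p 0.00679) and passed in neither direction at day 5 (-0.09 ± 0.099, adjusted p 0.441) or day 8 (-0.06 ± 0.089, adjusted p 0.554). The start-day experiment had Hmgcs1 from 455 to 563 CPM (median 530) in sham and from 596 to 686 CPM (median 628) with imiquimod, with no overlap (0.28 ± 0.066, adjusted p 0.000411).

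Other steps up to squalene divided in the same manner. The kinases Mvk and Pmvk and the farnesyl diphosphate synthase Fdps rose in all 4 comparisons, with log2 fold changes of 0.26 to 0.87, 0.28 to 0.75 and 0.37 to 0.95. Acat2, the thiolase that joins acetyl-CoA units, also passed in all 4, at 0.40, 0.36, 0.23 and 0.53. Its call at day 8 was lost when sham library 40, 41 or 42 or imiquimod library 44, 46 or 47 was left out, with an adjusted p of up to 0.108, and in 2 other settings, up to 0.142. Mvd, the decarboxylase that ends the mevalonate steps, was called in the start-day experiment (0.44 ± 0.053) and gave 0.12 ± 0.090, -0.05 ± 0.10 and -0.09 ± 0.089 at days 2, 5 and 8, where it did not pass. Fdft1, the squalene synthase, rose at day 2 (0.27 ± 0.094, a call lost with no filter on low counts at an adjusted p of 0.0545) and in the start-day experiment (0.55 ± 0.055). Ggps1 went the other way. It makes geranylgeranyl diphosphate, which leaves the route to sterols for the lipid anchors of proteins.

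Ggps1 ran from 21.3 to 24.1 CPM (median 23.3) in sham and from 14.6 to 19.8 CPM (median 17.9) with imiquimod at day 2. At day 5 the sham libraries had 25.1, 23.4, 21.8 and 24.1 CPM, and the imiquimod libraries ran from 15.9 to 18.5 CPM (median 17.3). Ggps1 ran from 19.3 to 24.7 CPM (median 22.9) in sham and from 14.4 to 17.4 CPM (median 15) with imiquimod in the start-day experiment. These 3 pairs of groups did not overlap. The log2 fold changes were -0.38 ± 0.062, -0.45 ± 0.068 and -0.54 ± 0.061, and it fell less far at day 8 (-0.18 ± 0.062, adjusted p 0.00768), where the ranges of 19.3 to 22.9 CPM (median 20.6) in sham and from 16.2 to 19.3 CPM (median 18.6) with imiquimod touched.

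From squalene on, the sterol isomerase Ebp was the called member with the highest log2 fold change at days 5 and 8. It ran from 40.8 to 46.6 CPM (median 43.8) in sham and from 57.2 to 66.9 CPM (median 63.3) with imiquimod at day 2. Sham libraries of day 5 had 46.4, 46, 50.6 and 50.2 CPM, against 78.6 to 91.3 CPM (median 83.2) with imiquimod. At day 8 it ran from 42.8 to 58.9 CPM (median 51) in sham and from 80.5 to 95.4 CPM (median 90.1) with imiquimod. In all 3 days and in the start-day experiment (39.9 to 48.4 CPM (median 46.8) against 81.6 to 95.5 CPM (median 89.4)) the groups were apart. Its log2 fold changes were 0.51 ± 0.053, 0.80 ± 0.059, 0.82 ± 0.052 and 0.95 ± 0.043.

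Hsd17b7, a ketosteroid reductase of the same stretch, was among the 3 highest at day 2, where it ran from 61.4 to 103 CPM (median 67.6) in sham and from 103 to 131 CPM (median 122) with imiquimod. The ranges met at 103 CPM only by rounding. The highest sham library was at 6.6826 log2 CPM and the lowest imiquimod library at 6.6851, so the groups came close without overlap. It rose in all 4 comparisons (0.67 ± 0.11, 0.46 ± 0.12, 0.51 ± 0.11 and 1.07 ± 0.080). The lanosterol synthase Lss gave 0.55, 0.39, 0.37 and 0.88, the lanosterol demethylase Cyp51 gave 0.52, 0.34, 0.26 and 0.71, and the dehydrogenase Nsdhl gave 0.30, 0.26, 0.15 and 0.54, all called. The call of Nsdhl at day 8 was close to the threshold (adjusted p 0.0452) and was lost when any of sham libraries 37, 39, 40, 41 and 42 or imiquimod libraries 44, 46, 47 and 49 was left out (adjusted p up to 0.136), and in 5 of 6 other settings (up to 0.169). That of Cyp51 at day 8 was lost with no filter (0.0563). Sc5d, a sterol desaturase, was called in the start-day experiment (0.74 ± 0.044) and not at day 2, 5 or 8 (-0.03, 0.02 and 0.11).

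Msmo1, Dhcr7 and Tm7sf2 fell at some times. Msmo1 encodes the methylsterol oxidase that follows the lanosterol demethylase. At day 5 its level was 257, 227, 236 and 256 CPM in the sham libraries and ran from 166 to 203 CPM (median 188) with imiquimod. At day 8 it ran from 248 to 359 CPM (median 290) in sham and from 186 to 235 CPM (median 208) with imiquimod, and in the start-day experiment from 255 to 301 CPM (median 263) in sham and from 191 to 229 CPM (median 208) with imiquimod. The groups were apart at each of these times, and the log2 fold changes were -0.39 ± 0.10, -0.49 ± 0.093 and -0.38 ± 0.052. At day 2 it did not pass (0.09 ± 0.093, adjusted p 0.43).

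Dhcr7 encodes the last reductase of one branch, whose substrate is also the skin's precursor of vitamin D. Sham libraries at day 5 had 142, 154, 196 and 160 CPM, and imiquimod libraries ran from 109 to 134 CPM (median 120), all lower. Dhcr7 fell at day 5 (-0.43 ± 0.066) and less at day 8 (-0.17 ± 0.059, adjusted p 0.012), and it rose in the start-day experiment (0.14 ± 0.048, adjusted p 0.00805), with levels from 101 to 129 CPM (median 118) in sham and from 120 to 135 CPM (median 132) with imiquimod. Tm7sf2, a sterol reductase, had low levels, which at day 2 ran from 10.1 to 11.8 CPM (median 11.3) in sham and from 5.93 to 10.9 CPM (median 7.44) with imiquimod. It fell at day 2 (-0.48 ± 0.13), day 5 (-0.39 ± 0.14) and day 8 (-0.35 ± 0.13), with overlapping ranges at days 2 and 5, and its call at day 5 was lost without sham library 19 (adjusted p 0.0668). It did not pass in the start-day experiment (0.07 ± 0.066, adjusted p 0.329).

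Among the 4 sensing genes, Srebf2 and its escort Scap rose while Insig2 fell, in all 4 comparisons. Srebf2 ran from 238 to 278 CPM (median 266) in sham and from 302 to 343 CPM (median 321) with imiquimod at day 2. Its level at day 5 was 245, 253, 293 and 262 CPM in sham and ran from 342 to 400 CPM (median 362) with imiquimod. Day 8 levels ran from 260 to 290 CPM (median 280) in sham and from 362 to 410 CPM (median 380) with imiquimod. All imiquimod libraries were above all sham libraries at each day, as in the start-day experiment, where Srebf2 ran from 207 to 234 CPM (median 216) in sham and from 381 to 424 CPM (median 404) with imiquimod. The log2 fold changes of Srebf2 were 0.30 ± 0.048, 0.48 ± 0.054, 0.46 ± 0.048 and 0.87 ± 0.039, and those of Scap were 0.27 ± 0.034, 0.32 ± 0.038, 0.34 ± 0.034 and 0.36 ± 0.027.

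Insig2 encodes one of the anchors that hold SCAP in the endoplasmic reticulum. It ran from 49.6 to 64.4 CPM (median 52.1) in sham and from 38.8 to 45.9 CPM (median 43) with imiquimod at day 2. The sham libraries of day 5 had 59.9, 63.2, 58.9 and 63.7 CPM, against 30.3 to 38.7 CPM (median 34.4) with imiquimod. At day 8 it ran from 54.9 to 67.2 CPM (median 61) in sham and from 33.5 to 38.6 CPM (median 36.1) with imiquimod. Every imiquimod library was below every sham library of its day. The same held in the start-day experiment, with 57.8 to 71.4 CPM (median 65.4) in sham and from 30.4 to 38.5 CPM (median 34.9) with imiquimod. The log2 fold changes were -0.34 ± 0.070, -0.83 ± 0.077, -0.76 ± 0.070 and -0.92 ± 0.058.

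Insig1, the other anchor and itself a known target of SREBP, followed neither course. It ran from 72.1 to 88.4 CPM (median 81.6) in sham and from 45.6 to 76.9 CPM (median 64.6) with imiquimod at day 2, and sham libraries of day 5 had 73, 60.5, 61.8 and 75.1 CPM against 50 to 68.3 CPM (median 60.4) with imiquimod. Day 8 levels ran from 78.3 to 94.5 CPM (median 89.6) in sham and from 58.6 to 83.1 CPM (median 73.7) with imiquimod. It fell at day 2 (-0.40 ± 0.10, adjusted p 0.000804) and at day 8 (-0.26 ± 0.10, adjusted p 0.0226), with overlapping ranges, and did not pass at day 5 (-0.18 ± 0.11, adjusted p 0.157). Without imiquimod library 48 the call at day 8 was lost (adjusted p 0.0797). The start-day experiment had Insig1 from 68 to 84.2 CPM (median 74) in sham and from 69.9 to 82.8 CPM (median 74.5) with imiquimod, a log2 fold change of 0.00 ± 0.079.

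Of the 5 transport genes, Abca1, Abcg1 and Npc1 fell at day 2, and at day 8 Abcg1 and Stard4 rose and Nr1h3 fell. Abca1, which loads cholesterol onto lipid-poor apolipoprotein and whose promoter holds the LXR element printed above, ran from 76.5 to 88.5 CPM (median 78.9) in sham and from 39 to 62.5 CPM (median 45.2) with imiquimod at day 2, with no overlap. At day 5 the sham libraries had 67.5, 62.3, 72.6 and 80.4 CPM and the imiquimod libraries ran from 53.2 to 76.8 CPM (median 65.2). Abca1 at day 8 ran from 64.4 to 86.2 CPM (median 74.1) in sham and from 64.6 to 79.4 CPM (median 72.8) with imiquimod. It was the called member with the lowest log2 fold change at day 2 (-0.77 ± 0.092, adjusted p 6.52e-10) and passed neither at day 5 (-0.14 ± 0.10, adjusted p 0.22) nor at day 8 (-0.05 ± 0.091, adjusted p 0.628). Levels of the start-day experiment ran from 65.1 to 96 CPM (median 89.8) in sham and from 64.7 to 81.9 CPM (median 76.9) with imiquimod (-0.18 ± 0.081, adjusted p 0.0422). That call was lost when sham library 1, 3, 5 or 6 or imiquimod library 8, 10, 11 or 12 was left out, with an adjusted p of up to 0.128, and in 4 of 6 other settings (up to 0.131).

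Abcg1, which exports sterol to more mature lipoproteins, began below sham and ended above it. At day 2 it ran from 30.5 to 39.8 CPM (median 35.2) in sham and from 17.6 to 27.3 CPM (median 24.9) with imiquimod, all lower. The sham libraries of day 5 had 33.7, 34.3, 36.2 and 36.2 CPM, and the imiquimod libraries ran from 32.5 to 45.1 CPM (median 40.8). Day 8 levels ran from 24.2 to 36.6 CPM (median 35.7) in sham and from 36.5 to 42.5 CPM (median 39.6) with imiquimod, where only the highest sham level reached into the imiquimod range. In the start-day experiment it ran from 25.5 to 36.8 CPM (median 32.9) in sham and from 58.5 to 77.7 CPM (median 68.8) with imiquimod, all higher. The log2 fold change was -0.60 ± 0.11 at day 2, 0.18 ± 0.12 at day 5 (not called), 0.25 ± 0.10 at day 8 (adjusted p 0.0286) and 1.09 ± 0.11 in the start-day experiment. The call at day 8 was lost when sham library 38 or 42 or imiquimod library 45 or 47 was left out, with an adjusted p of up to 0.121, and with no filter (0.126).

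Stard4, which carries cholesterol between membranes inside the cell, showed the highest log2 fold change of any member in the start-day experiment. It ran from 36.2 to 39.9 CPM (median 37.2) in sham there and from 85.7 to 116 CPM (median 96) with imiquimod, with every imiquimod library above every sham library (1.39 ± 0.073, adjusted p 3.86e-17). Stard4 at day 8 ran from 47.1 to 64.7 CPM (median 54.2) in sham and from 68.1 to 91.1 CPM (median 82.5) with imiquimod, also apart. Its log2 fold change was -0.00 ± 0.087 at day 2, 0.29 ± 0.096 at day 5 and 0.57 ± 0.086 at day 8, called at the later 2 days. Npc1, which lets cholesterol out of lysosomes, fell at day 2 (-0.31 ± 0.059) and day 5 (-0.28 ± 0.065) and passed neither at day 8 (0.02) nor in the start-day experiment (0.05).

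Nr1h3, which encodes LXR alpha, was measured at low counts, with wide errors. It ran from 5.7 to 8.28 CPM (median 7.06) in sham and from 3.27 to 5.56 CPM (median 4.37) with imiquimod at day 8, and from 5.97 to 8.93 CPM (median 7.86) in sham and from 3.2 to 5.08 CPM (median 3.7) with imiquimod in the start-day experiment. Both pairs were apart. At day 2 it ran from 6.39 to 10.1 CPM (median 7.48) in sham and from 5.79 to 7.46 CPM (median 7.25) with imiquimod, and at day 5 the sham libraries had 8.53, 5.62, 7.14 and 8.03 CPM against 4.5 to 7.4 CPM (median 5.62) with imiquimod, both overlapping. The log2 fold change was -0.13 ± 0.14 at day 2 (not called), -0.36 ± 0.16 at day 5, -0.69 ± 0.15 at day 8 and -0.93 ± 0.12 in the start-day experiment. The call at day 5 was lost when any of sham libraries 19, 21 and 22 or imiquimod libraries 25 to 28 was left out (adjusted p up to 0.156), and by DESeq2 (0.0601).

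The imiquimod effect itself differed among days 2, 5 and 8 for 9 of the 28 members by an F test on the interaction, beside 33.4% of all genes, which is close to the members' share. These were Hmgcs1, Ebp, Msmo1, Dhcr7, Insig2 and the 4 transport genes Abca1, Abcg1, Stard4 and Npc1, with adjusted p from 1.35e-05 for Abcg1 to 0.0354 for Hmgcs1. That of Hmgcs1 was lost when any of 8 single libraries was left out, namely sham 2, 3, 4 or 6 or imiquimod 10, 11 or 12 of day 2 or sham 22 of day 5 (adjusted p up to 0.101). Within the imiquimod ears alone, 8 members rose and 4 fell from day 2 to day 5, where 22.6% of genes rose and 23.4% fell. Abcg1 (0.77 ± 0.11), Abca1 (0.44 ± 0.092), Ebp (0.43 ± 0.052) and Stard4 (0.39 ± 0.087) had the 4 highest rises. From day 5 to day 8, 5 members rose and 0 fell (5.91% and 5.88% of genes), with Stard4 highest (0.37 ± 0.086) and an unadjusted p under 0.05 in 1 falling member. DESeq2 and limma voom also called 0 lower. The count of 5 was 2 with no filter, 3 with another scaling and 10 with only the compared groups fitted. It ranged from 2 to 6 over single omissions, and was 2 or 3 when any 1 of libraries 25, 26, 29 and 30 of day 5 and 46 and 47 of day 8 was left out.

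The start-day experiment and day 8 of the time course both compare imiquimod with sham under a day 8 label. A joint fit of these 4 groups, chosen after the data were seen, tested whether the imiquimod effect differed between the experiments. The signed difference, start-day experiment minus day 8, was called positive for 20 of the 28 members and negative for 1, Ggps1. Of 18118 genes, 12.7% were called positive and 13.4% negative. Among the 19 synthesis genes 16 were positive and 1 negative, and the median difference was 0.487. The sign does not give the size of the effect. Ggps1 fell further in the start-day experiment, and Insig1, Tm7sf2 and Dhcr7 fell at day 8 but not there. The differences were 0.61 ± 0.073, adjusted p 2.9e-07 for Sqle, 0.68 ± 0.059, adjusted p 1.42e-09 for Sc5d, 0.46 ± 0.055, adjusted p 2.87e-07 for Srebf2, 0.86 ± 0.10, adjusted p 7.19e-07 for Stard4 and 0.88 ± 0.13, adjusted p 1.49e-05 for Abcg1. Msmo1, Ebp, Scap, Insig2, Npc1, Abca1 and Nr1h3 did not pass. Sham levels also differed, with the median of the mean log2 CPM of the 19 synthesis genes at 6.618 in sham ears of day 8 and 6.383 in sham ears of the start-day experiment, against 6.803 and 6.950 with imiquimod. Each experiment was scaled on its own for these levels, and what set the experiments apart was not tested.

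**Figure D2:**
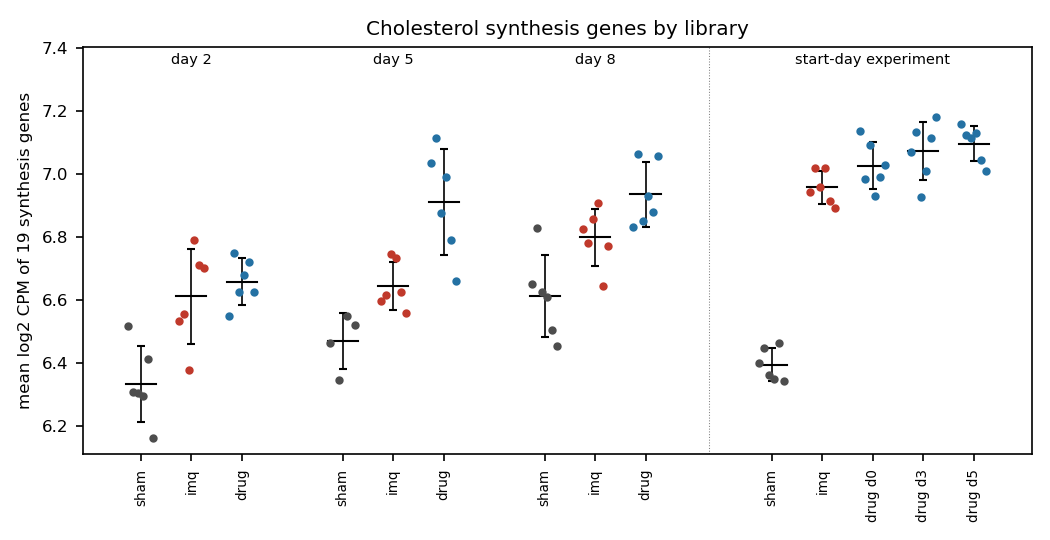
Mean log2 CPM of the 19 synthesis genes (y axis) in each library, by group, with the group mean and SD in black; grey is sham, red imiquimod and blue imiquimod with drug. The sham medians of the time course are 6.307, 6.492 and 6.618 at days 2, 5 and 8, and the 6 sham libraries of the start-day experiment lie below all other libraries of that experiment.

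Markers of other cells moved with these results. Sebaceous gland markers rose in 5 of 10 cases and fell in 2 at day 2 of imiquimod, rose in 2 and fell in 6 at day 5, rose in 1 and fell in 8 at day 8, and fell in 9 of 10 in the start-day experiment. Their summed level in the start-day experiment ran from 1090 to 1260 CPM in sham and from 366 to 408 CPM with imiquimod. Adipocyte markers fell in 9 of 10 cases at day 2 and in all 10 in the other 3 comparisons, with start-day sums of 600 to 722 CPM in sham and 232 to 267 CPM with imiquimod. All 8 skeletal muscle markers fell in each of the 4 comparisons, and their start-day sums were 4540 to 4880 CPM in sham and 787 to 1020 CPM with imiquimod.

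Macrophage markers rose in 7 of 10 cases at day 2 and in all 10 at day 5, at day 8 and in the start-day experiment, where their sum ran from 598 to 697 CPM in sham and from 1480 to 1950 CPM with imiquimod. Of the neutrophil markers, 5 of 8 tested rose and 1 fell at day 2, 7 of 8 rose at day 5, 6 of 8 at day 8 and 6 of 6 in the start-day experiment, with start-day sums of 3960 to 5340 CPM (median 4640) with imiquimod, against a median of 19.5 and a highest value of 23.3 CPM in sham. Suprabasal keratinocyte markers were divided: of 10, 6 rose and 3 fell at day 2, 5 and 5 at day 5, 6 and 4 at day 8, and 7 and 3 in the start-day experiment. Their sums at day 5 were 14400 to 20900 CPM in sham and 17900 to 29900 CPM with imiquimod, and in the start-day experiment 10400 to 13600 CPM and 28300 to 44700 CPM. Basal keratinocyte markers were divided as well (of 8, 4 rose and 3 fell, 3 and 4, 4 and 4, and 4 and 4, in the same order). Fibroblast markers fell in 4 of 8 cases at day 2, rose in 4 and fell in 3 at days 5 and 8, and fell in 5 in the start-day experiment. The neutrophil markers Ly6g and Ngp were at 0 in some sham groups, and no other marker was at 0 in any group. The part of these cells in the members' changes was not tested.

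Most synthesis genes were higher with drug than with imiquimod alone at day 5, and few members were called at days 2 and 8. These counts do not compare the days. An F test on the interaction called the drug effect different among days for 3 of the 19 synthesis genes, beside 7.99% of all genes. At day 5, 14 of the 28 members were higher and 1 was lower with drug, beside 18.3% and 17.2% of all genes. Of the 19 synthesis genes 12 were higher and 0 lower, with a median log2 fold change of 0.26 against 0.015 over all genes. At day 2, 2 members were higher and 0 lower (6.9% and 9.61% of genes), and at day 8 again 2 and 0 (1.22% and 0.335%, 1.56% in all). The median of the synthesis genes was 0.031 at day 2, against 0.012 over all genes. At day 8 it was 0.147, against 0.002. Of the lower side, 2 members at day 2 and 1 at day 8 had an unadjusted p under 0.05. DESeq2 called 1 lower at each of these days, and limma voom 0 at day 2 and 1 at day 8. At day 5, 0 synthesis genes were lower by any of the 3 tools or at an unadjusted p under 0.05. The drug comparisons use the same imiquimod libraries as the comparisons with sham, so that the values of the 2 kinds are not independent.

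**Figure D3:**
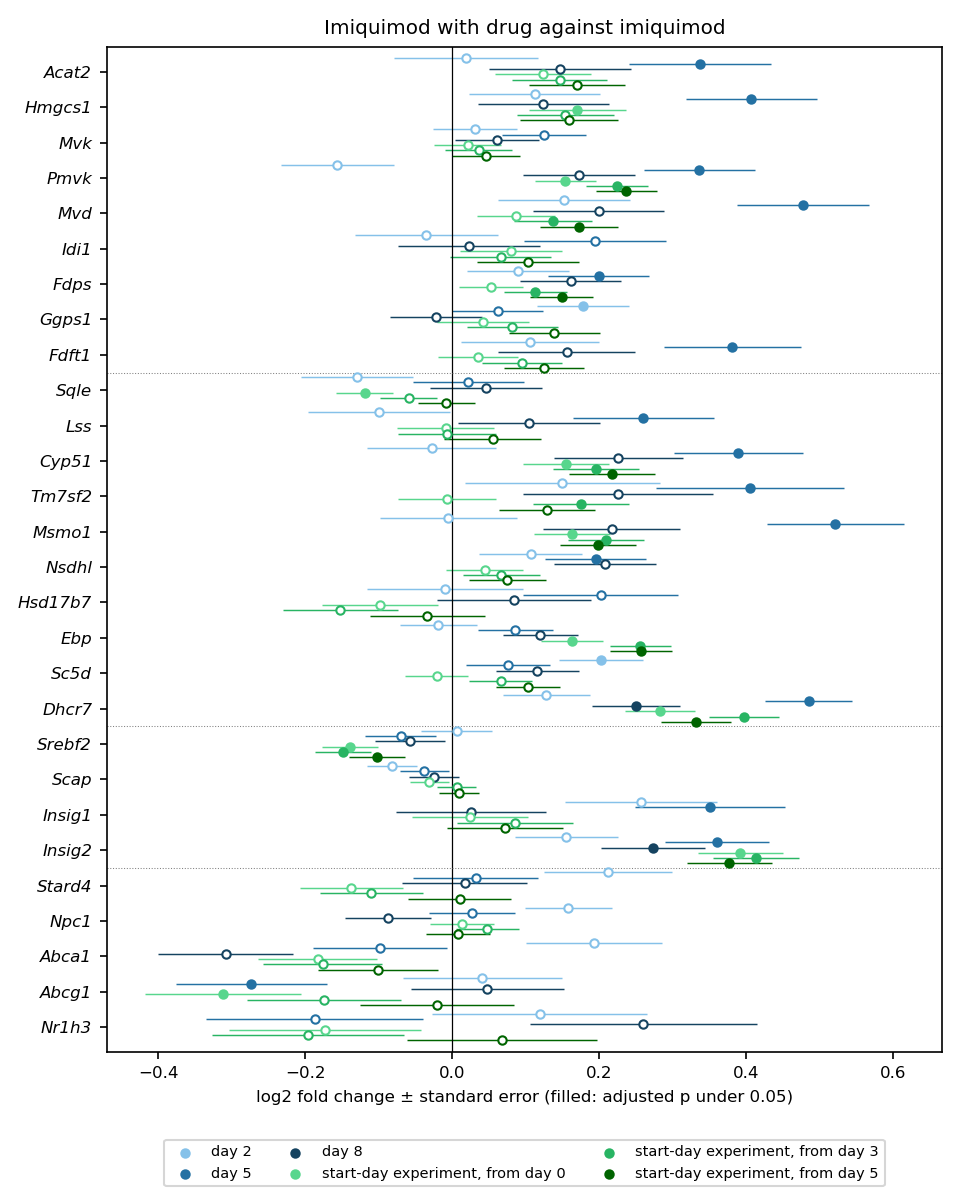
Log2 fold change (x axis) ± standard error of each of the 28 members, imiquimod with drug against imiquimod, at days 2, 5 and 8 and for drug begun on day 0, 3 or 5 of the start-day experiment. Filled points have an adjusted p under 0.05. The mid-blue points of day 5 lie farthest to the right for most synthesis genes, and Dhcr7 and Insig2 are filled in 5 of the 6 comparisons. The comparisons of the start-day experiment share their imiquimod libraries.

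Dhcr7, Msmo1 and Mvd had the highest log2 fold changes with drug at day 5. Dhcr7 ran from 109 to 134 CPM (median 120) with imiquimod and from 137 to 187 CPM (median 176) with drug, and Mvd ran from 53.3 to 66.5 CPM (median 62.6) and from 71.2 to 99.5 CPM (median 86.6). For both, every drug library was above every imiquimod library. Msmo1 ran from 166 to 203 CPM (median 188) with imiquimod and from 197 to 329 CPM (median 276) with drug, and the ranges overlapped at their ends. The log2 fold changes were 0.48 ± 0.059, adjusted p 3.81e-08 for Dhcr7, 0.52 ± 0.093, adjusted p 2.33e-05 for Msmo1 and 0.48 ± 0.089, adjusted p 3.99e-05 for Mvd.

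Hmgcs1 ran from 477 to 547 CPM (median 516) with imiquimod and from 534 to 843 CPM (median 680) with drug at day 5 (0.41 ± 0.089, adjusted p 0.000322). The drug libraries were spread widely, and the lowest lay inside the imiquimod range. Cyp51 (0.39), Fdft1 (0.38), Acat2 (0.34), Pmvk (0.34) and Tm7sf2 (0.41) were also higher. Lss (0.26), Fdps (0.20) and Nsdhl (0.20) were called but lost the call in several single-library omissions. For Fdps these were imiquimod library 30 and drug libraries 31 and 32. For Lss they were imiquimod 26, 29 and 30 and drug 31, 32 and 34, and for Nsdhl imiquimod 25, 26 and 30 and drug 31 and 32. The highest adjusted p was then 0.0882 for Fdps, 0.126 for Lss and 0.0796 for Nsdhl. Fdps also missed with only the compared groups fitted (0.0507), and Lss with no filter (0.0705).

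Sqle and Idi1, both higher under imiquimod than in sham, were not called with drug. Sqle ran from 238 to 266 CPM (median 258) with imiquimod and from 231 to 297 CPM (median 253) with drug (0.02 ± 0.076, adjusted p 0.859), and Idi1 ran from 110 to 131 CPM (median 122) and from 105 to 163 CPM (median 144) (0.19 ± 0.097, adjusted p 0.114). Ebp gave 0.09 ± 0.051. The ranges of Sqle and of Idi1 overlapped, and a value that does not pass is no evidence of equal levels.

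In the sensing group at day 5, Insig1 ran from 50 to 68.3 CPM (median 60.4) with imiquimod and from 59.2 to 97.3 CPM (median 73.9) with drug (0.35 ± 0.10, adjusted p 0.0058), and Insig2 ran from 30.3 to 38.7 CPM (median 34.4) and from 36.9 to 49.5 CPM (median 45.4) (0.36 ± 0.070, adjusted p 6.7e-05). Both anchors were thus higher with drug, with some overlap. Srebf2 ran from 342 to 400 CPM (median 362) with imiquimod and from 322 to 379 CPM (median 349) with drug and did not pass (-0.07 ± 0.048, adjusted p 0.267). Of the transport genes Abcg1 alone was called, and it was lower, running from 32.5 to 45.1 CPM (median 40.8) with imiquimod and from 28.8 to 38 CPM (median 33) with drug (-0.27 ± 0.10, adjusted p 0.0346). That call was lost without imiquimod library 27, 28 or 30 or drug library 32 or 34 (adjusted p up to 0.0957) and with no filter (0.0908). Abca1 ran from 53.2 to 76.8 CPM (median 65.2) and from 52.5 to 66.8 CPM (median 61.4) (-0.10 ± 0.091, adjusted p 0.426), and Nr1h3 ran from 4.5 to 7.4 CPM (median 5.62) and from 3.76 to 6.66 CPM (median 4.7) (-0.19 ± 0.15, adjusted p 0.346). For neither did the difference exceed the spread between libraries.

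At day 8 Dhcr7 ran from 127 to 138 CPM (median 132) with imiquimod and from 143 to 170 CPM (median 156) with drug, without overlap (0.25 ± 0.059, adjusted p 0.0205). Insig2 ran from 33.5 to 38.6 CPM (median 36.1) and from 36 to 48.2 CPM (median 43.2) (0.27 ± 0.071, adjusted p 0.0323). These were the 2 members called at day 8. The call of Dhcr7 was lost without imiquimod library 48 or 49 or drug library 52 or 54 (adjusted p up to 0.0706), and that of Insig2 without any of imiquimod libraries 45 to 49 or drug libraries 52, 54 and 56 (adjusted p up to 0.121). Abca1 ran from 64.6 to 79.4 CPM (median 72.8) with imiquimod and from 51 to 71 CPM (median 56.6) with drug, and its log2 fold change of -0.31 ± 0.091 did not pass (adjusted p 0.0722), though it did by DESeq2, by limma voom and with only the compared groups fitted. At day 2 the 2 called were Ggps1 (0.18 ± 0.062, adjusted p 0.0425) and Sc5d (0.20 ± 0.057, adjusted p 0.0114). With imiquimod libraries 9 and 11 left out (chosen once the data had been seen) neither was called, nor with only the compared groups fitted. Leaving out imiquimod library 9 alone took Sc5d to an adjusted p of 0.0724, and Ggps1 was lost without imiquimod library 7, 11 or 12 or drug library 13, 14, 15 or 17 (up to 0.137).

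The drug effect differed among the 3 days for 4 members by an F test on the interaction, Pmvk (adjusted p 0.0108), Dhcr7 (0.0162), Msmo1 (0.0259) and Abca1 (0.0314), beside 7.99% of all genes. That of Abca1 was lost without imiquimod libraries 9 and 11 of day 2, with only the compared groups fitted or with no filter. It was also lost when imiquimod library 7 or 9 or drug library 14 or 15 of day 2, or imiquimod 48 or drug 55 of day 8, was left out (up to 0.0598). That of Msmo1 was lost with no filter or without imiquimod library 30 or drug library 32 of day 5 (up to 0.0645).

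Cell type markers moved at day 5 too. With drug, 9 of 10 sebaceous gland markers were higher and their sum ran from 876 to 1470 CPM, against 514 to 777 CPM with imiquimod. Of the 10 suprabasal keratinocyte markers 7 were higher and 1 lower, with sums of 23000 to 41700 CPM against 17900 to 29900 CPM. All 10 macrophage markers were lower, with sums of 568 to 1250 CPM against 992 to 1620 CPM. All 10 adipocyte markers were higher, with sums of 371 to 578 CPM against 280 to 346 CPM. Of the neutrophil markers 7 of 8 were lower, with sums of 202 to 2490 CPM against 2830 to 4220 CPM. Of 8 fibroblast markers 7 were lower and 1 higher, with sums of 4870 to 6880 CPM against 7490 to 9130 CPM. Skeletal muscle markers were higher in 6 of 8 cases, with sums of 1380 to 2470 CPM against 1060 to 1860 CPM, and basal keratinocyte markers were divided, 3 higher and 3 lower of 8. At day 8, 6 of 10 sebaceous, 2 of 8 basal and 1 of 10 suprabasal keratinocyte markers were higher and 1 of 8 fibroblast markers was lower, and no marker of the other 4 lists was called by edgeR. No marker was at 0 in these groups, and their part in the members' changes was not tested.

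Against sham, the ears treated with imiquimod and drug at day 8 had 17 members higher and 6 lower, beside 34.2% and 32.6% of genes. The imiquimod ears of the same day had 15 and 7 against the same sham libraries. Ebp (0.94 ± 0.052), Sqle (0.75 ± 0.076) and Fdps (0.63 ± 0.069) were highest, and Insig2 (-0.49 ± 0.069), Nr1h3 (-0.42 ± 0.15) and Abca1 (-0.36 ± 0.091) were lowest. Fdps ran from 175 to 229 CPM (median 194) in sham and from 243 to 286 CPM (median 278) in imiquimod ears of that day, and the levels of the other 5 in these ears were given above. In drug ears Ebp ran from 88.9 to 105 CPM (median 97.2), Sqle from 245 to 318 CPM (median 284) and Fdps from 279 to 344 CPM (median 300), all above every sham library. Nr1h3 ran from 3.38 to 7.54 CPM (median 5.3) in drug ears.

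In the start-day experiment a smaller group of members moved with drug. With drug from day 0, 7 members were higher and 3 lower (18.2% and 16.9% of genes, 35.1% in all). From day 3, 9 were higher and 1 lower (18% and 16.4%), and from day 5, 8 were higher and 1 lower (15% and 12.7%). In either direction 10, 10 and 9 of the 28 members were called, beside 35.1%, 34.3% and 27.7% of genes. From day 0 and day 3 this is close to the share over all genes. With all libraries in the fit, higher members made up a larger share than higher genes did from each start. Lower members made up a smaller share, and neither was tested as a difference. The count of 7 from day 0 was 4 without drug library 25, which is a smaller share of the 28 than 18.2%. The 3 comparisons share their 6 imiquimod libraries. Their values are set side by side, and a call that recurs from each start is not independent evidence.

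Insig2 and Dhcr7 had the 2 highest log2 fold changes from each start day. Insig2 ran from 30.4 to 38.5 CPM (median 34.9) with imiquimod, from 40.9 to 49.9 CPM (median 45.2) with drug from day 0, from 42.1 to 47.2 CPM (median 46.4) from day 3 and from 41.2 to 47 CPM (median 45.6) from day 5. Dhcr7 ran from 120 to 135 CPM (median 132), from 147 to 171 CPM (median 156), from 162 to 185 CPM (median 169) and from 151 to 176 CPM (median 164) in the same order. For both genes all drug libraries were above all imiquimod libraries. The log2 fold changes of Insig2 were 0.39 ± 0.058, 0.41 ± 0.058 and 0.38 ± 0.058, and those of Dhcr7 were 0.28 ± 0.048, 0.40 ± 0.048 and 0.33 ± 0.048. Insig2 in the drug groups was still below sham, where it ran from 57.8 to 71.4 CPM (median 65.4), and Dhcr7 in the drug groups was above sham, where it ran from 101 to 129 CPM (median 118).

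Ebp ran from 81.6 to 95.5 CPM (median 89.4) with imiquimod and from 94.7 to 106 CPM (median 98), from 103 to 111 CPM (median 106) and from 102 to 109 CPM (median 107) with drug from day 0, 3 and 5. It was called higher from each start (0.16 ± 0.042, 0.26 ± 0.042 and 0.26 ± 0.042), as were Pmvk (0.15, 0.22 and 0.24), Msmo1 (0.16, 0.21 and 0.20) and Cyp51 (0.15, 0.20 and 0.22). The call of Cyp51 from day 0 was lost without imiquimod library 7, 9, 11 or 12 or drug library 25, 27 or 30 (adjusted p up to 0.12) and in 3 of 6 other settings (up to 0.126), and that of Msmo1 from day 0 without drug library 25 (0.0525). Hmgcs1 ran from 596 to 686 CPM (median 628) with imiquimod and from 639 to 796 CPM (median 704), from 595 to 782 CPM (median 712) and from 634 to 822 CPM (median 694) with drug. Its log2 fold changes were alike in size at 0.17 ± 0.066, adjusted p 0.0452, 0.15 ± 0.066, adjusted p 0.0715 and 0.16 ± 0.066, adjusted p 0.0731, and the call from day 0 was lost in 8 of 12 single-library omissions (imiquimod 7, 9, 10, 11 and 12 and drug 25, 27 and 30, up to 0.127) and in 4 of 6 other settings (up to 0.144). Mvd, Fdps and Tm7sf2 were called from day 3 with adjusted p of 0.0433, 0.0407 and 0.0362, and these calls were not stable. Mvd lost it in 10 of 12 single omissions, all but imiquimod library 10 and drug library 21 (up to 0.133). Fdps lost it without imiquimod library 7, 9, 11 or 12 or drug library 20, 23 or 24 (up to 0.151), and Tm7sf2 without imiquimod library 7, 8 or 11 or drug library 20, 22 or 24 (up to 0.138). Of 6 other settings, 5 ended the calls of Mvd and Fdps and 3 that of Tm7sf2. From day 5 Mvd (0.17 ± 0.053, adjusted p 0.0135) and Fdps (0.15 ± 0.043, adjusted p 0.009) were called as well.

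Srebf2 was lower with drug from each start day. It ran from 381 to 424 CPM (median 404) with imiquimod and from 344 to 393 CPM (median 366), from 344 to 383 CPM (median 364) and from 354 to 401 CPM (median 376) with drug from day 0, 3 and 5 (-0.14 ± 0.038, adjusted p 0.0044, then -0.15 ± 0.038, adjusted p 0.0029 and -0.10 ± 0.038, adjusted p 0.0451), against 207 to 234 CPM (median 216) in sham. The drug libraries thus lay mostly below the imiquimod libraries and well above sham. The call from day 5 was lost without imiquimod library 7, 8, 10 or 11 or drug library 15, 16, 17 or 18 (adjusted p up to 0.119) and with only the compared groups fitted (0.0521). Sqle ran from 298 to 321 CPM (median 302) with drug from day 0 against 321 to 345 CPM (median 332) with imiquimod, and was lower (-0.12 ± 0.039, adjusted p 0.0154). From day 3 (-0.06 ± 0.039, adjusted p 0.255) and day 5 (-0.01 ± 0.039, adjusted p 0.916) it did not pass.

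Abcg1 ran from 58.5 to 77.7 CPM (median 68.8) with imiquimod, from 48 to 67.1 CPM (median 52.8) with drug from day 0, from 52.7 to 74.1 CPM (median 59.2) from day 3 and from 55 to 82.7 CPM (median 66.1) from day 5. It was lower with drug from day 0 (-0.31 ± 0.11, adjusted p 0.0224), a call lost without imiquimod library 9 or drug library 28 (up to 0.0594), and did not pass from day 3 (-0.17) or day 5 (-0.02). Abca1 ran from 58.4 to 77.3 CPM (median 67.1), from 61.6 to 71.7 CPM (median 66.9) and from 63.6 to 81.9 CPM (median 68) with drug and did not pass from any start (-0.18, -0.18 and -0.10). Nr1h3 ran from 2.97 to 3.91 CPM (median 3.62), from 2.94 to 3.84 CPM (median 3.56) and from 3.13 to 5.17 CPM (median 4.22) and did not pass (-0.17, -0.20 and 0.07). Idi1 (0.08, 0.07 and 0.10), Insig1 (0.02, 0.09 and 0.07) and Stard4 (-0.14, -0.11 and 0.01) did not pass either. In drug ears Idi1 ran from 152 to 195 CPM (median 172), from 154 to 186 CPM (median 172) and from 161 to 194 CPM (median 176), and Insig1 ran from 64.1 to 84.7 CPM (median 77.1), from 68 to 92 CPM (median 78.3) and from 62.4 to 84.7 CPM (median 81.4), both across the imiquimod range.

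**Figure D4:**
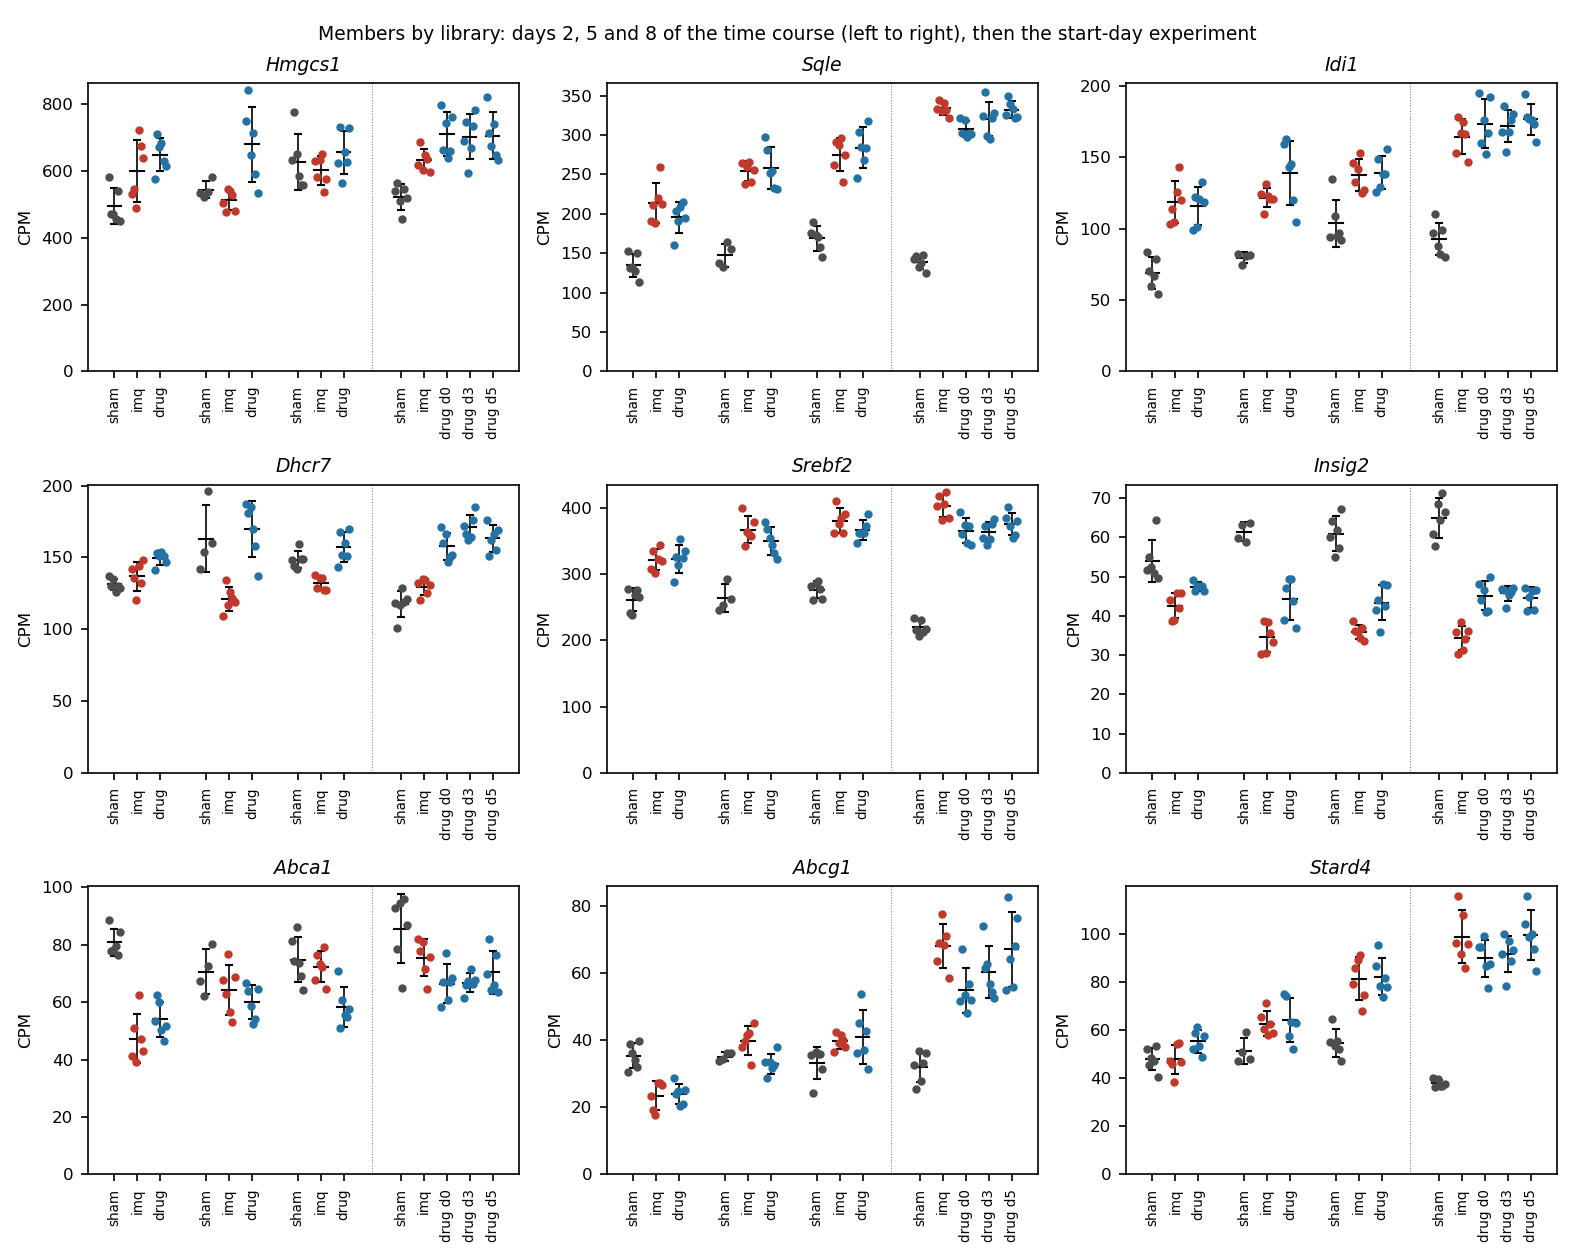
CPM (y axes, from 0) of 9 members in each library, by group, with the group mean and SD in black; grey is sham, red imiquimod and blue imiquimod with drug, and drug d0, d3 and d5 are the start days. Insig2 is low in all red groups and intermediate in all blue groups of the start-day experiment, and Abcg1 is below sham at day 2 and above it in the start-day experiment.

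No member was called between the 3 start days, whose labelled times of treatment also differ. An F test among them in edgeR called 0 of 28 members and 1 of 18434 genes (0.00542%). At an unadjusted p under 0.05 it marked 5 members, and DESeq2 and limma voom called 0. Between drug from day 5 and from day 0, Abcg1 differed by 0.29 ± 0.11 (log2) and Nr1h3 by 0.24 ± 0.13, and between day 3 and day 0 Tm7sf2 differed by 0.18 ± 0.066. These are the largest differences of the 28 members in the 2 contrasts, and they do not pass. Sebaceous gland markers were higher with drug from each start (9 of 10 each time), with sums of 676 to 957 CPM from day 0, 645 to 941 CPM from day 3 and 429 to 904 CPM from day 5, against 366 to 408 CPM with imiquimod. Macrophage markers were lower in 8, 7 and 2 of 10 cases with drug from day 0, 3 and 5, with sums of 1170 to 1400, 1200 to 1590 and 1230 to 1850 CPM against 1480 to 1950 CPM. Neutrophil markers were lower in 6, 6 and 5 of 6 cases, with sums of 1100 to 2630, 1890 to 2720 and 1050 to 3310 CPM against 3960 to 5340 CPM. Higher were 8, 7 and 7 of 10 adipocyte markers, 8, 6 and 7 of 8 skeletal muscle markers, and 6 of 10 suprabasal keratinocyte markers each time, whose sums were 45700 to 62300, 48900 to 65900 and 50000 to 67300 CPM against 28300 to 44700 CPM. Basal keratinocyte markers were divided (of 8, 5 higher and 3 lower, 5 and 3, and 3 and 3), as were those of fibroblasts (1 and 3, 1 and 2, and 1 and 1). The part of these cells in the changes of the members was not tested.

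Against sham, drug from day 0 left 20 members higher and 5 lower (36.7% and 37.6% of genes), the same counts as imiquimod against the same sham libraries. Stard4 (1.25 ± 0.073), Sqle (1.15 ± 0.039) and Ebp (1.12 ± 0.043) were highest, and Nr1h3 (-1.10 ± 0.13), Insig2 (-0.53 ± 0.057) and Ggps1 (-0.49 ± 0.061) were lowest. Stard4 ran from 77.4 to 99 CPM (median 91) and Ggps1 from 14.8 to 17.6 CPM (median 15.6) in these drug ears, against the sham ranges given above, and neither overlapped sham.

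Sham ears themselves changed over the time course, and in these genes in one direction only among those called. From day 2 to day 8, 14 members rose and 0 fell, where 3.12% of all genes rose and 3.37% fell, 6.48% in all. All 14 were synthesis genes, 8 of the 9 up to squalene and 6 of the 10 after it, and their list's median log2 fold change was 0.31 against 0.008 over all genes. Of the 9 sensing and transport genes edgeR called 0, with 3 at an unadjusted p under 0.05, and DESeq2 and limma voom called 0. Of falls, 2 members were at an unadjusted p under 0.05, and both other tools called 0.

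**Figure D5:**
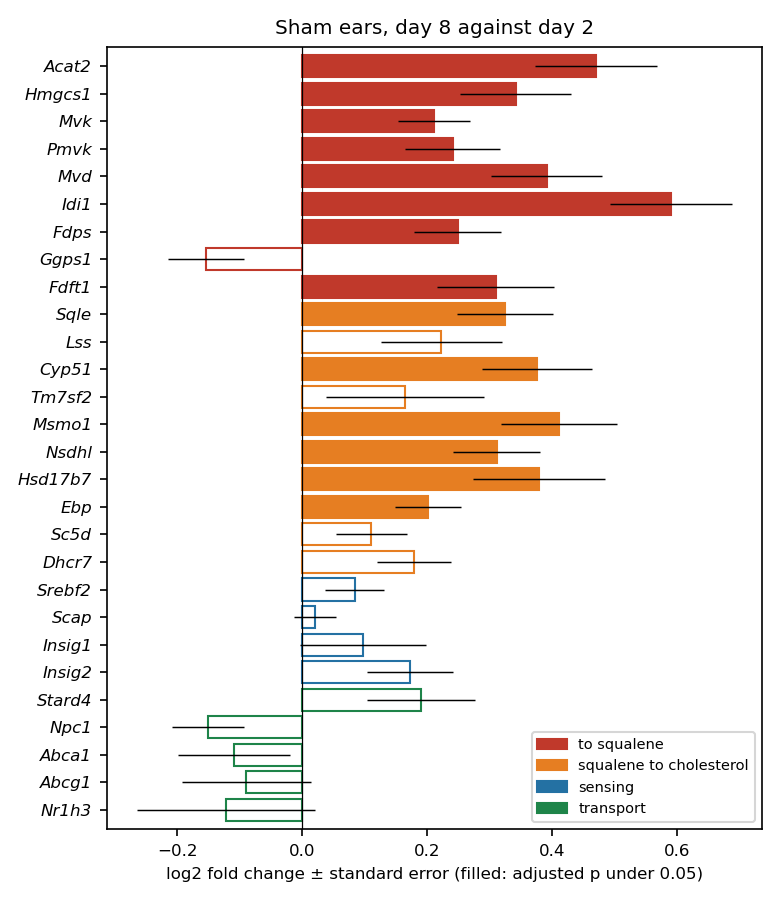
Log2 fold change (bars, x axis) ± standard error of each of the 28 members in sham ears, day 8 against day 2, with colours for the 4 roles. Filled bars have an adjusted p under 0.05; all 14 of them are synthesis genes and point to the right, and Ggps1 is the one synthesis gene that points to the left.

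Idi1 had the highest rise, from 54.1 to 83.9 CPM (median 68.5) at day 2 to a range from 92.3 to 135 CPM (median 95.8) at day 8, with no overlap (0.59 ± 0.098, adjusted p 0.00013). Acat2 ran from 59.3 to 81.7 CPM (median 71.6) at day 2 and from 80.2 to 126 CPM (median 97.6) at day 8 (0.47 ± 0.097, adjusted p 0.00165). Msmo1 ran from 175 to 252 CPM (median 216) and from 248 to 359 CPM (median 290) (0.41 ± 0.093, adjusted p 0.00402). For Acat2 and Msmo1 the lowest libraries of day 8 lay within the range of day 2. The levels of Hmgcs1 and Sqle at these days were given above, and their log2 fold changes were 0.34 ± 0.089 and 0.33 ± 0.076. Srebf2 (0.08 ± 0.048), Insig1 (0.10 ± 0.10), Abca1 (-0.11 ± 0.090), Abcg1 (-0.09 ± 0.10) and Nr1h3 (-0.12 ± 0.14) did not pass.

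Library 38 had the highest mean of the synthesis genes among the day 8 sham libraries, at 6.828 log2 CPM against 6.456 to 6.65 in the other 5. Without it 7 members rose and 0 fell. Each other single omission, of the 12 run, left the count within 1.5 times of 14. In the same comparison 5 of 10 sebaceous gland markers rose, with sums of 707 to 1010 CPM at day 2 and 950 to 1510 CPM at day 8, and 7 of 8 skeletal muscle markers fell, with sums of 3490 to 4640 CPM and 2150 to 3670 CPM. The other 6 lists had at most 1 called marker each, and no sebaceous or muscle marker was at 0. Their part in the rise of the synthesis genes was not tested.

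Fatty acid genes mostly fell under imiquimod. Of 12 genes of fatty acid synthesis, many of them targets of SREBP1, 2 rose and 8 fell at day 2, 1 rose and 9 fell at day 5, 2 rose and 9 fell at day 8, and 3 rose and 8 fell in the start-day experiment. Of all tested genes, 29.2% rose and 28.5% fell at day 2, 34.6% and 35.9% at day 5, 34.5% and 33.6% at day 8, and 38.1% and 39.9% in the start-day experiment. Srebf1, the gene of SREBP1, gave -0.70 ± 0.076, -1.11 ± 0.084, -0.97 ± 0.077 and -1.01 ± 0.059, and the elongase Elovl5 gave -0.93 ± 0.076, -1.23 ± 0.082, -1.49 ± 0.077 and -1.66 ± 0.055. The desaturase Scd1 gave -1.86 ± 0.13 at day 5 and -1.90 ± 0.12 at day 8. With drug at day 5, 6 of the 12 were higher and none was called lower by edgeR (18.3% and 17.2% of all genes), with Scd1 at 1.03 ± 0.12, the elongase Elovl6 at 1.18 ± 0.14 and Srebf1 at 0.51 ± 0.076. With drug from day 0, 3 and 5, 6, 7 and 7 were higher, beside 18.2%, 18% and 15% of all genes, and 2 were lower from day 0, beside 16.9%. Whether the fatty acid and the cholesterol genes differed as lists was not tested.

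Among 12 tested genes of sterol uptake, storage and oxidation, 5 rose and 5 fell at day 2, 6 and 5 at day 5, 6 and 6 at day 8, and 5 and 6 in the start-day experiment under imiquimod. Rises and falls were thus about equal in number, as they were over all genes (29.2% and 28.5%, 34.6% and 35.9%, 34.5% and 33.6%, and 38.1% and 39.9%). Sult2b1, which makes cholesterol sulfate in the outer epidermis, gave 1.44 ± 0.094, 1.90 ± 0.11, 1.87 ± 0.094 and 2.56 ± 0.060. Cyp7b1, an oxysterol hydroxylase, gave 4.07 ± 0.39 at day 5, 3.78 ± 0.32 at day 8 and 3.15 ± 0.18 in the start-day experiment. The lipoprotein receptor gene Vldlr fell in all 4 (-0.67, -1.20, -1.15 and -1.72). Soat1, which esterifies cholesterol for storage and is also in the sebaceous marker list, was higher with drug at day 5 (1.00 ± 0.14, adjusted p 3e-07), from day 0 (1.04 ± 0.12, adjusted p 6.79e-07) and from day 5 (0.90 ± 0.12, adjusted p 1.05e-05).

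Of 10 genes of the prenyl branches, which use the same isoprenoids for dolichol, ubiquinone and protein prenylation, 5 rose and 1 fell at day 2, 5 and 3 at day 5, 5 and 4 at day 8, and 5 and 3 in the start-day experiment, beside 29.2% and 28.5%, 34.6% and 35.9%, 34.5% and 33.6%, and 38.1% and 39.9% of all genes. Several of these counts are close to the shares over all genes. Nus1, a subunit of the dolichol-making prenyltransferase, rose in all 4 (1.14 ± 0.080, 1.35 ± 0.092, 1.10 ± 0.080 and 1.16 ± 0.057), as did Pdss1, which makes the ubiquinone tail (1.64 ± 0.16, 1.68 ± 0.18, 1.50 ± 0.16 and 1.38 ± 0.12). Nus1 was lower with drug at day 5 (-0.24 ± 0.078, adjusted p 0.0115), from day 0 (-0.22 ± 0.056, adjusted p 0.00221) and from day 5 (-0.22 ± 0.056, adjusted p 0.00301). Its rise under imiquimod was opposite in sign to the fall of Ggps1 in the same libraries, and that difference between the genes was not tested.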

How the data were processed

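RNA from 82 right ear punches was made into libraries with a messenger RNA kit, per the labels' protocols. The authors deposited 1 table of estimated counts per gene for each of 2 experiments, made with salmon per the names of the deposited tables and on GRCm39 per the submitters' processing notes. The salmon version, annotation release, strand setting and trimming were not given in the sources used here. Estimated counts share reads between similar genes by model. They were rounded to whole numbers here.

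Each experiment was fitted on its own with edgeR 4.0.16 in R 4.3.3 (filterByExpr, TMM scaling, robust quasi-likelihood F tests, all groups in 1 fit, no covariates), with 15 comparisons and 3 F tests, and Benjamini-Hochberg adjustment over all tested genes. CPM used TMM library sizes, and log2 CPM a prior count of 2. The scripts were tested on simulated counts first. The lowest chi-square per gene between 2 libraries of a group was 4.13, so no 2 of them were copies of the same counts. This value cannot tell whether 2 libraries came from the same RNA, ear or mouse. Alternatives were RLE scaling, no filter, at least 1 CPM in 4 libraries, DESeq2 1.42.0, limma voom (3.58.1) with sample weights, only the compared groups, a prior count of 5 for mean levels, and each library left out. The joint fit of both experiments and the fit without imiquimod libraries 9 and 11 of day 2 were added after the data were seen. Depth, given with the results, sets counting error only.

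All 28 members could be named by rule. Level ranges were given for up to 3 called members with the highest and lowest fold changes in each comparison and for Hmgcs1, Sqle, Idi1, Insig1, Srebf2, Abca1, Abcg1 and Nr1h3, and up to 4 called genes from each of 3 other lists. Members and lists were chosen with earlier results of these data known. Some genes of the pathway are not reported here.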

Additional observations from a re-analysis of the deposited data

Results flagged for a closer look

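In 126 sets of 4 to 6 libraries (8 members and the mean of the synthesis genes, in 14 groups), 4 had a library set far apart from the rest at its low end, where chance alone marks about 1 set in 20. Idi1 was at 6.22 log2 CPM in sham library 20 of day 5, against 6.34 to 6.36 in the other 3. Insig1 was at 5.96 in library 18 with drug from day 5, against 6.31 to 6.4. Abcg1 was at 4.6 in sham library 38 of day 8, against 4.98 to 5.2. Nr1h3 was at 2.56 in imiquimod library 9 of day 2, against 2.84 to 2.92.

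The imiquimod effect differed among days 2, 5 and 8 (edgeR F test on the interaction, adjusted p) for Abcg1 (1.35e-05), Abca1 (2.8e-05), Dhcr7 (8.94e-05), Insig2 (0.000213), Ebp (0.000858), Stard4 (0.000894), Msmo1 (0.00115), Npc1 (0.00235) and Hmgcs1 (0.0354). The drug effect differed among these days for Pmvk (0.0108), Dhcr7 (0.0162), Msmo1 (0.0259) and Abca1 (0.0314).

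The imiquimod effect differed between the start-day experiment and day 8 of the time course (adjusted p in the joint edgeR fit, chosen after the data were seen) for 21 members. Among the steps to squalene these were Acat2 (0.0409), Hmgcs1 (0.00302), Mvk (4.78e-07), Pmvk (5.42e-05), Mvd (0.000137), Idi1 (0.00793), Fdps (1.12e-06), Ggps1 (0.0136) and Fdft1 (0.00023). From squalene on they were Sqle (2.9e-07), Lss (0.000361), Cyp51 (3e-04), Tm7sf2 (0.00425), Nsdhl (0.000356), Hsd17b7 (0.000314), Sc5d (1.42e-09) and Dhcr7 (8.29e-05). In sensing and transport they were Srebf2 (2.87e-07), Insig1 (0.0117), Stard4 (7.19e-07) and Abcg1 (1.49e-05). Acat2 missed with no filter and in 14 of 24 single-library omissions (up to 0.101 and 0.0795).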

How the results depend on the processing

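No paired analysis was possible because replicate numbers run on across the groups of each experiment, so that compared groups share none. No call changed direction in any alternative. Of the tests of single members, 3207 kept their side of the threshold in other settings, 66 lost a call and 31 gained one, and over single-library omissions 7847 kept it, 214 lost a call and 59 gained one. Counts of members that moved by over 1.5 times were these; the cause was not tested. For drug against imiquimod at day 2, the 2 higher became 1 with RLE scaling, 1 with no filter, 0 with only the compared groups (which also tested fewer genes) and 0 without imiquimod libraries 9 and 11, and the 0 lower became 1 by DESeq2. At day 5 the 1 lower became 0 with no filter. At day 8 the 0 lower became 1 by DESeq2, by voom and with only the compared groups. From imiquimod day 5 to day 8 the 5 higher became 3 with RLE scaling, 2 with no filter and 10 with only the compared groups. The 4 members whose drug effect differed among days became 2 with no filter. With only the compared groups, the 1 lower became 2 for drug from day 3 and 0 for drug from day 5. The filter of 1 CPM in 4 libraries moved 0 of 35 counts.

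Over single-library omissions, higher and lower counts for imiquimod against sham were 15 to 15 and 7 to 7 at day 2, 14 to 14 and 5 to 7 at day 5, 12 to 16 and 6 to 7 at day 8, and 20 to 21 and 4 to 5 in the start-day experiment. For drug against imiquimod they were 1 to 6 and 0 to 1 at day 2 (6 without imiquimod library 10, 1 without imiquimod 7, 9 or 11 or drug 13, 14 or 15), 11 to 16 and 0 to 1 at day 5, and 0 to 3 and 0 to 1 at day 8 (0 higher without imiquimod 48 or 49 or drug 52 or 54). With drug from day 0, 3 and 5 they were 4 to 7 and 2 to 4 (4 higher without drug library 25), 6 to 12 and 1 to 2, and 8 to 12 and 0 to 1. For drug against sham they were 16 to 17 and 4 to 6 at day 8 and 20 to 20 and 5 to 5 from day 0. Within imiquimod ears they were 7 to 8 and 3 to 5 from day 2 to 5, and 2 to 6 and 0 to 0 from day 5 to 8. In sham ears from day 2 to 8 they were 7 to 14 and 0 to 0. The F tests gave 8 to 11 members for the imiquimod effect, 3 to 5 for the drug effect and 0 to 0 for start days. The joint fit gave 19 to 21 positive and 1 to 1 negative differences.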
